A study of Homo sapiens with 6 samples.

Results

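The epithelial tight junction was followed through 9 of its genes in SKOV3 cells after knockdown of EIF5A2. They are CLDN1, CLDN3, CLDN4 and CLDN7 (claudins), OCLN (occludin), F11R (junctional adhesion molecule A), TJP1 and TJP3 (zonula occludens scaffolds ZO-1 and ZO-3) and CGN (cingulin). The genes were chosen by symbol, and each of the 9 symbols matched a single row among the 58825 Ensembl gene identifiers of the table. SKOV3 is an established human line of epithelial ovarian cancer. Of the 6 RNA-seq libraries, 3 came from cells given a negative control (NC) and 3 from cells given an siRNA against EIF5A2 (si-EIF5A2), in both cases for 48 h. All libraries come from 1 line. Nothing in the labels says that the 3 libraries of a group were separate cultures, so the p-values measure the spread between these libraries, which may be technical.

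Tight junctions seal the space between neighbouring epithelial cells near their apical side. Claudins cross the membrane several times, pair with claudins of the opposite cell and set which ions and small molecules can cross. Occludin is another membrane protein of the same strands, and junctional adhesion molecules are single-pass proteins of the immunoglobulin type. On the inner face, ZO proteins hold claudins by their tails and link them to actin, and cingulin binds both ZO proteins and the actomyosin ring. In ovarian carcinoma CLDN3, CLDN4 and CLDN7 are the claudins usually found to be high, and factors such as ZEB1, ZEB2, SNAI1 and SNAI2 are known to repress junction genes through E-boxes in their promoters.

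Promoter windows are shown for CLDN1, CLDN4 and CGN, which changed, and for CLDN7, which did not pass the test. Each window is the 250 bases before a start of transcription listed by RefSeq. CLDN4 and CLDN7 were both nearly silent. The sequences are those of RefSeq on GRCh38.p14, 5′ to 3′ on the strand of the gene, and 8 of the 9 genes had an entry. Capitals mark CAGGTG or its reverse complement CACCTG, the E-box read by Snail and ZEB factors. They also mark CACCC or its reverse complement GGGTG, the core read by KLF factors. Both motifs were searched on both strands, and no matches overlapped in these windows. The gene positions given below are those of GENCODE, and their starts differ from those of RefSeq. By the GENCODE positions, the CLDN4, CGN and CLDN7 windows lie inside their genes. The CLDN1 window reaches into CLDN1 and also holds the GENCODE start of CLDN16. Which starts were in use in these cells was not tested, so the motif counts belong to the RefSeq windows only.
CLDN1, chr3:190322447-190322696, minus strand: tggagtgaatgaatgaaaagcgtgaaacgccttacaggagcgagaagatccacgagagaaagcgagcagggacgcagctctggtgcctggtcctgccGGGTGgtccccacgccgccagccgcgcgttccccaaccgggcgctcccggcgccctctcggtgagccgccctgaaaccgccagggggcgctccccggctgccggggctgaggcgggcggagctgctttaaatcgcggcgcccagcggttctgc
CLDN4, chr7:73830746-73830995, plus strand: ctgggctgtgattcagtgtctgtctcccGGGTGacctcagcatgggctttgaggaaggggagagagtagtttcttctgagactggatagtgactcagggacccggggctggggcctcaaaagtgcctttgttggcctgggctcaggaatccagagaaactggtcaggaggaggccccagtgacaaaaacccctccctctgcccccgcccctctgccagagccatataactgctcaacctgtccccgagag
CGN, chr1:151511137-151511386, plus strand: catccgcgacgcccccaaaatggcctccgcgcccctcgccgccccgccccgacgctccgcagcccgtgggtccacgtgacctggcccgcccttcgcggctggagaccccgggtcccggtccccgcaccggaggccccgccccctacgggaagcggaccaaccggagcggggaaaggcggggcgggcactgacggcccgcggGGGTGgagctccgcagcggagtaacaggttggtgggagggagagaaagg
CLDN7, chr17:7262479-7262728, minus strand: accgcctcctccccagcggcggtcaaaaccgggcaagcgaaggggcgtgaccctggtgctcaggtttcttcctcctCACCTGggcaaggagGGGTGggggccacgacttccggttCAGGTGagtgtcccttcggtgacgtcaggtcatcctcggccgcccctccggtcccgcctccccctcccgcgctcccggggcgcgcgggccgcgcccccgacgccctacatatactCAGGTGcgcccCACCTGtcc

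The CLDN1, CLDN4 and CGN windows each held 1 CACCC core and 0 E-boxes, whereas the CLDN7 window held 4 E-boxes and 1 core. Of the 35116 RefSeq promoter windows of this length, 17.5% held the E-box and 54.7% the CACCC core. CLDN7 has a second start in the same table, whose window held 0 E-boxes and 5 cores. Among the other genes, CLDN3 had 0 E-boxes, OCLN held 1 in each of its 2 windows, TJP1 1 in 1 of its 4 windows and TJP3 1 in 1 of its 2 windows, so E-boxes were found in promoters of both expressed and nearly absent genes. The 2 motifs were picked with the expression values known. A match describes the letters only and is not evidence of binding.

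The totals were 46900204 to 74142267 counts per library, at about 3.81 counts per sequenced fragment. Counts are given as deposited, or as CPM, the counts scaled to 1000000 per library on library sizes adjusted by the TMM method. EIF5A2 itself was at 27.8, 29.8 and 29.9 CPM in the NC libraries and at 2.76, 4.04 and 4.27 CPM in the si-EIF5A2 libraries, so 12.7% of its level was left and every library was low or high as its label says. The epithelial keratins KRT8 (608 ± 49.1 CPM in NC, SD, n = 3) and KRT18 (418 ± 36.6 CPM) were abundant, and KRT8 was lower after knockdown (377 ± 24.8 CPM, log2 fold change -0.69). EPCAM was at only 1.47 to 1.66 CPM in NC, and ERBB2, whose amplification SKOV3 is known for, at 44.5 to 48.6 CPM. Per exon length ERBB2 stood at the 60.1th percentile of the genes tested, and its neighbour GRB7 at 0 to 0.240 CPM over all libraries. The libraries are named SKOV3 here as their labels name them; why these markers were low was not tested. Of 4 leukocyte markers 3 were at 0 counts in all libraries. The summed level of 3 fibroblast markers was 0.872 to 1.41 CPM in NC and 0.782 to 2.29 CPM in si-EIF5A2 libraries. The 3 endothelial markers summed to 27.8 to 32.1 CPM in NC and 0.958 to 1.56 CPM in si-EIF5A2 libraries, nearly all of it CDH5 in NC, while the endothelial claudin CLDN5 was at 0 counts in 5 libraries and at 8 counts in si-EIF5A2 replicate 1. The part of the KRT8 and CDH5 differences in the junction results was not tested. In such bulk libraries fewer cells of a type and less RNA per cell cannot be told apart.

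After knockdown of EIF5A2, CLDN1 rose about 2.58-fold, whereas CGN fell to 18.2%, CLDN4 to 23.3% and F11R to 48.4% of the NC level. CLDN3, CLDN7, OCLN and TJP1 did not pass the test, and TJP3 was too low to be tested. Calls required a fold change over 1.5 and a Benjamini-Hochberg adjusted p under 0.05 in the edgeR quasi-likelihood fit of the 16208 genes tested. By this rule 4 of the 8 genes tested were called, 1 higher and 3 lower. Among all genes tested 24.6% were called, 11.1% higher and 13.6% lower. With 8 genes, whose names were chosen with earlier results of these data known, the count is a description only. The median log2 fold change of the 8 was -1.16, beside -0.010 over all genes tested. CLDN3, CLDN4 and CLDN7, which had few counts, enter this median. CLDN4 and CLDN7 were above the minimum count for testing in 3 NC but 2 si-EIF5A2 libraries, and CLDN3 in 2 and 1. The median is therefore no measure of the 8 genes as a group. For 6 of the 8 genes the 2 groups of libraries were without overlap, as they were for 51.2% of all genes tested. CLDN4 and CLDN7 are among these 6, and CLDN4 is among the 3 called lower, so the same limit holds for both counts. The same 4 genes passed the threshold of the study's methods (a fold change above 2 or below 0.5 at an unadjusted p below 0.05), which 14.6% of all genes passed.

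**Figure D1:**
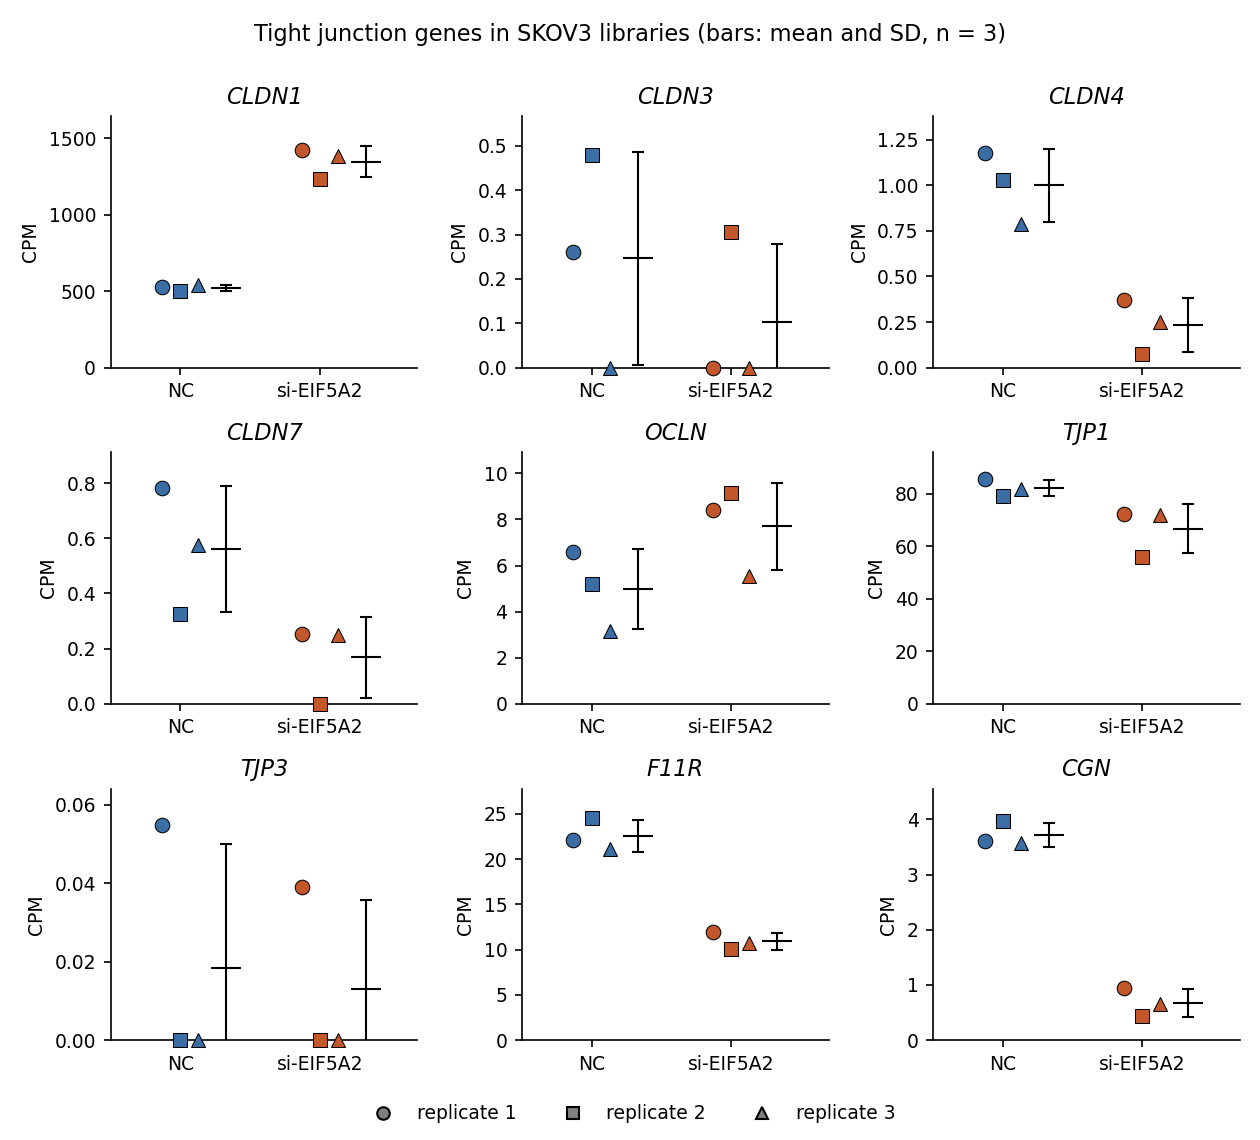
CPM (vertical axis, linear from 0, own scale in each panel) of the 9 genes in the NC (blue) and si-EIF5A2 (orange) libraries; each symbol is 1 library, and the bar beside it is the mean with its SD (n = 3). CLDN1 sat at 499 to 541 CPM in NC and 1237 to 1425 CPM in si-EIF5A2 libraries, while CLDN3 was at 0 in 1 NC and 2 si-EIF5A2 libraries and TJP3 in 2 libraries of each group.

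Per exon length the 9 genes differed by orders of magnitude. Levels between genes are compared as TPM, the counts divided by the union of annotated exons and scaled to the same sum in every library. In NC, CLDN1 had 394 ± 20.8 TPM (SD, n = 3), at the 98.1th percentile of the genes tested. TJP1 followed with 20.2 ± 0.593 TPM, F11R with 12.3 ± 0.939 TPM, OCLN with 2.03 ± 0.661 TPM and CGN with 1.55 ± 0.0950 TPM. OCLN and CGN overlapped over the NC libraries and are not ordered. CLDN7 (0.619 ± 0.244 TPM), CLDN4 (0.585 ± 0.103 TPM) and CLDN3 (0.531 ± 0.522 TPM) overlapped with each other, and TJP3 was at 0 to 0.0351 TPM. So the claudins usually high in ovarian carcinoma lay near the bottom of the genes tested in cells rich in CLDN1. They were at the 11.1th to 12.6th percentile. The union of exons, 4702 bases for CLDN4, can exceed the transcript present, which would lower such values. Some CLDN7 counts may belong to ELP5, as given below. In si-EIF5A2 libraries CLDN1 (1072 ± 110 TPM), TJP1 (17.2 ± 2.87 TPM), F11R (6.27 ± 0.717 TPM) and OCLN (3.30 ± 0.771 TPM) kept this order without overlap between neighbours. CGN (0.299 ± 0.118 TPM) then overlapped with CLDN3.

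CLDN1 encodes claudin-1, a barrier-forming claudin best known from the epidermis (ENSG00000163347, minus strand of chromosome 3 from 190305701 to 190322475, GRCh38). It had 38395, 35349 and 25414 counts in NC and 72840, 64557 and 66451 counts in si-EIF5A2 libraries. On the CPM scale these were 526, 499 and 541 against 1425, 1237 and 1385, so every knockdown library lay far above every control. This was a log2 fold change of 1.37 with a standard error of 0.08 (adjusted p = 1.31e-05). Leaving out each library in turn kept it between 1.32 and 1.43. CLDN16, the claudin-16 gene known from renal magnesium handling, starts 65 bases from the start of CLDN1 on the other strand. It had 1.49, 1.44 and 1.06 CPM in NC and 2.97, 1.95 and 2.17 CPM in si-EIF5A2 libraries. All its knockdown libraries were above all controls, but the gene was not called (log2 fold change 0.82, standard error 0.28, adjusted p = 0.0514).

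CLDN4 encodes claudin-4, which narrows the passage of cations between cells (ENSG00000189143, plus strand of chromosome 7 from 73799542 to 73832693). It had 86, 73 and 37 counts in NC and 19, 4 and 12 counts in si-EIF5A2 libraries, or 1.18, 1.03 and 0.787 against 0.372, 0.0766 and 0.250 CPM. The groups did not overlap, but every value rested on few fragments. CLDN4 fell by 2.09 on the log2 scale (standard error 0.61, adjusted p = 0.0287). The call was lost without NC replicate 1 (adjusted p = 0.0948), without NC replicate 2 (adjusted p = 0.0805) and if si-EIF5A2 replicate 3 was left out (adjusted p = 0.0643). The log2 fold change was -1.68 when si-EIF5A2 replicate 2 was left out, and -2.61 when si-EIF5A2 replicate 1 was.

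CLDN3 encodes claudin-3 and by the GENCODE positions lies 29271 bases from CLDN4 on the same chromosome, on the opposite strand. The RefSeq start of CLDN4 used for its promoter window lies farther away. CLDN3 was found with 19, 34 and 0 counts in NC and 0, 16 and 0 counts in si-EIF5A2 libraries. A count of 0 is compatible with up to 3 fragments, or 0.154 CPM in the deepest and 0.244 CPM in the shallowest library, and this floor covers counting error only. A change of CLDN3 was therefore not detectable at this depth (log2 fold change -1.27, standard error 1.66, adjusted p = 0.604). Its log2 value also moved widely with single libraries, to -0.38 if NC replicate 2 was dropped. If si-EIF5A2 replicate 2 was dropped it came to -6.87, where the remaining knockdown libraries were at 0 and the value is no measure of size.

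CLDN7 encodes claudin-7, a claudin also found along the lateral membrane, where it binds EPCAM. It had 57, 23 and 27 counts in NC and 13, 0 and 12 counts in si-EIF5A2 libraries (0.781, 0.325 and 0.574 against 0.254, 0 and 0.250 CPM). All 3 knockdown libraries were below all controls, yet the change was not called (log2 fold change -1.73, standard error 1.01, adjusted p = 0.227). Leaving out 1 library gave values from -2.17 to -1.14. Exons of CLDN7 overlap those of ELP5 on the opposite strand, whose mean was 40.9 CPM in NC and only 13.9 CPM after knockdown. No source used here says whether reads were assigned by strand, so some CLDN7 counts may belong to ELP5, and the part of ELP5 in the CLDN7 values was not tested. TJP3, the gene of ZO-3, had 4 counts in NC replicate 1, 2 counts in si-EIF5A2 replicate 1 and 0 in the other libraries, and did not pass the filter on low counts.

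OCLN, the gene of occludin (ENSG00000197822, plus strand of chromosome 5 from 69492292 to 69558104), had 6.60, 5.19 and 3.17 CPM in NC and 8.41, 9.14 and 5.57 CPM in si-EIF5A2 libraries. The knockdown mean was 154% of the NC mean, but the lowest knockdown library lay below the highest control. With a log2 fold change of 0.62 and a standard error of 0.30, OCLN did not pass the test (adjusted p = 0.148). Leaving out NC replicate 3 gave 0.38, and leaving out NC replicate 1 gave 0.88.

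F11R encodes JAM-A, an adhesion molecule at the apical end of the junction that binds ZO-1 and the polarity protein PAR-3 (ENSG00000158769, minus strand of chromosome 1 from 160995211 to 161021348). It had 22.1, 24.5 and 21.1 CPM in NC and 11.9, 10.1 and 10.8 CPM in si-EIF5A2 libraries. The groups were far apart relative to their spread. F11R fell by 1.05 on the log2 scale (standard error 0.12, adjusted p = 3.38e-04), and by leaving out 1 library the value stayed between -1.12 and -0.98. In the same cells the ratio of F11R to CLDN1 per exon length went from 0.0314 ± 0.00376 in NC to 0.00585 ± 0.000222 in si-EIF5A2 libraries (SD, n = 3 each). The other JAM genes were low, with JAM2 not called (log2 fold change 0.65, adjusted p = 0.468) and JAM3 at 46, 26 and 6 counts in NC against 0, 0 and 8 counts, too few to be tested.

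TJP1, the gene of ZO-1 (ENSG00000104067, minus strand of chromosome 15 from 29699367 to 29968865), had 85.6, 79.3 and 81.8 CPM in NC and 72.3, 55.9 and 71.8 CPM in si-EIF5A2 libraries. All knockdown libraries were below all controls, by a small margin. With a log2 fold change of -0.30 and a standard error of 0.11, TJP1 did not pass the test (adjusted p = 0.0677), and the value was -0.19 without si-EIF5A2 replicate 2.

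CGN, the gene of cingulin (ENSG00000143375, plus strand of chromosome 1 from 151510510 to 151538692), had 264, 281 and 168 counts in NC and 48, 23 and 31 counts in si-EIF5A2 libraries. These were 3.62, 3.97 and 3.57 CPM against 0.939, 0.441 and 0.646 CPM, with every knockdown library far below every control. CGN fell by 2.46 on the log2 scale (standard error 0.31, adjusted p = 5.80e-04), the largest change among the 8 genes tested. Leaving out 1 library gave values between -2.78 and -2.23. Its paralog CGNL1 averaged 0.551 CPM in NC, 0.403 CPM after knockdown, and was not called (log2 fold change -0.46, adjusted p = 0.600).

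Of the 20 other claudin genes, 6 were tested and 1 was called (16.7%, beside 24.6% of all genes tested). CLDN14, known from the inner ear and kidney, had 3.51, 2.56 and 3.00 CPM in NC and 13.5, 12.5 and 14.7 CPM in si-EIF5A2 libraries. CLDN14 rose by 2.17 on the log2 scale (standard error 0.17, adjusted p = 4.88e-05), with no overlap between groups. Its exons overlap those of AP000695.2 on the opposite strand. CLDN11, the claudin of myelin and of the Sertoli cell barrier, varied more between libraries than between groups. It had 127, 84.0 and 408 CPM in NC and 87.4, 80.2 and 300 CPM in si-EIF5A2 libraries, so replicate 3 stood high in both groups and no change was called (log2 fold change -0.40, standard error 0.85). CLDN12 had 39.2, 45.4 and 45.3 CPM in NC but 27.6, 76.1 and 91.3 CPM in si-EIF5A2 libraries and was not called either (adjusted p = 0.373). Exons of CLDN12 overlap those of CDK14, GTPBP10, AC002456.2 and AC006153.1 on the same strand, and exons of CLDN11 those of AC026316.5. The part of these genes in the CLDN12 and CLDN11 counts was not tested. Of the claudins not tested, 6 had 0 counts in all 6 libraries.

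Summed over all 24 claudin genes, the level per exon length was 503, 465 and 752 TPM in NC and 1259, 1056 and 1405 TPM in si-EIF5A2 libraries. CLDN1 made up 77.1%, 81.1% and 55.5% of this sum in NC and 91.9%, 89.8% and 79.0% in si-EIF5A2 libraries. The shares of the groups overlapped, with NC replicate 2 above si-EIF5A2 replicate 3. CLDN11 took 41.1% of the sum in NC replicate 3 and 16.8% in si-EIF5A2 replicate 3, the largest CLDN11 share of each group. CLDN3, CLDN4 and CLDN7 each took 0.224% or less in every library.

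**Figure D2:**
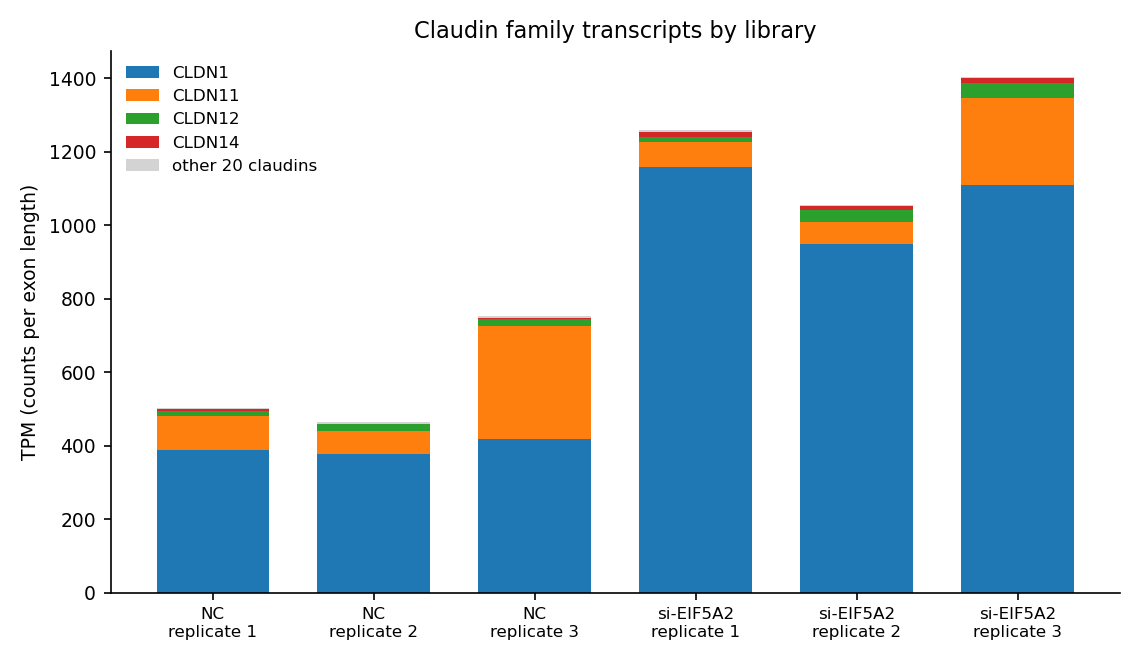
Stacked TPM (vertical axis, counts per exon length scaled to the same sum) of the claudin genes in each of the 6 libraries; colours are CLDN1, CLDN11, CLDN12 and CLDN14, and grey is the sum of the other claudins. CLDN1 is the largest part in every library, and the CLDN11 part is widest in replicate 3 of both groups.

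Beyond the 9 genes, 59 further genes of the tight junction were listed from general knowledge, of which 38 were tested. Of these, 6 were called (15.8%), 4 higher and 2 lower, with a median log2 fold change of 0.045. The share called among all genes tested was 24.6%. Apart from CLDN14, CLMP, an immunoglobulin-type adhesion molecule of the CTX family, rose from 19.3 ± 0.784 to 49.7 ± 2.33 CPM (SD, n = 3 each; log2 fold change 1.37, adjusted p = 2.18e-05). PARD6B, a PAR-6 subunit of the apical polarity complex, rose from 2.25 ± 0.229 to 4.24 ± 0.383 CPM (log2 fold change 0.92, adjusted p = 0.0068). The angiomotin-like genes, whose products bind polarity scaffolds and YAP, went opposite ways. AMOTL1 rose from 21.2 ± 1.40 to 34.8 ± 1.72 CPM (0.71 on the log2 scale), and AMOTL2 fell from 442 ± 46.5 to 285 ± 19.5 CPM (-0.63 on the log2 scale). AMOTL2 shares exon sequence with the pseudogene RPL39P5 on the same strand.

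By role, 1 of 7 genes of the polarity complexes tested was called (PARD6B), 1 of 4 genes of the JAM and CTX family (CLMP), 2 of 9 genes of signalling and traffic (AMOTL1 and AMOTL2) and 0 of 3 genes of the MARVEL and tricellular group. The share over all genes tested was 24.6%, and groups of 3 to 9 genes are too small to be set apart from it. The calls are those of edgeR; at an adjusted p under 0.05 with no limit on the fold change, which 36.9% of all genes passed, the tight junction list had 9 genes and the MARVEL and tricellular group still 0. MARVEL here names the membrane domain of occludin and tricellulin. Abundant genes not called were YBX3, the Y-box factor that binds ZO-1 (log2 fold change -0.018), ARHGEF2, the exchange factor GEF-H1 (-0.34), RAB13, a small GTPase of junction traffic (0.52), SYMPK, encoding symplekin (-0.076), and PRKCI, an atypical protein kinase C (0.059). Of these, ARHGEF2 (adjusted p = 0.0246) and RAB13 (adjusted p = 0.0135) missed the call by their fold change alone.

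**Figure D3:**
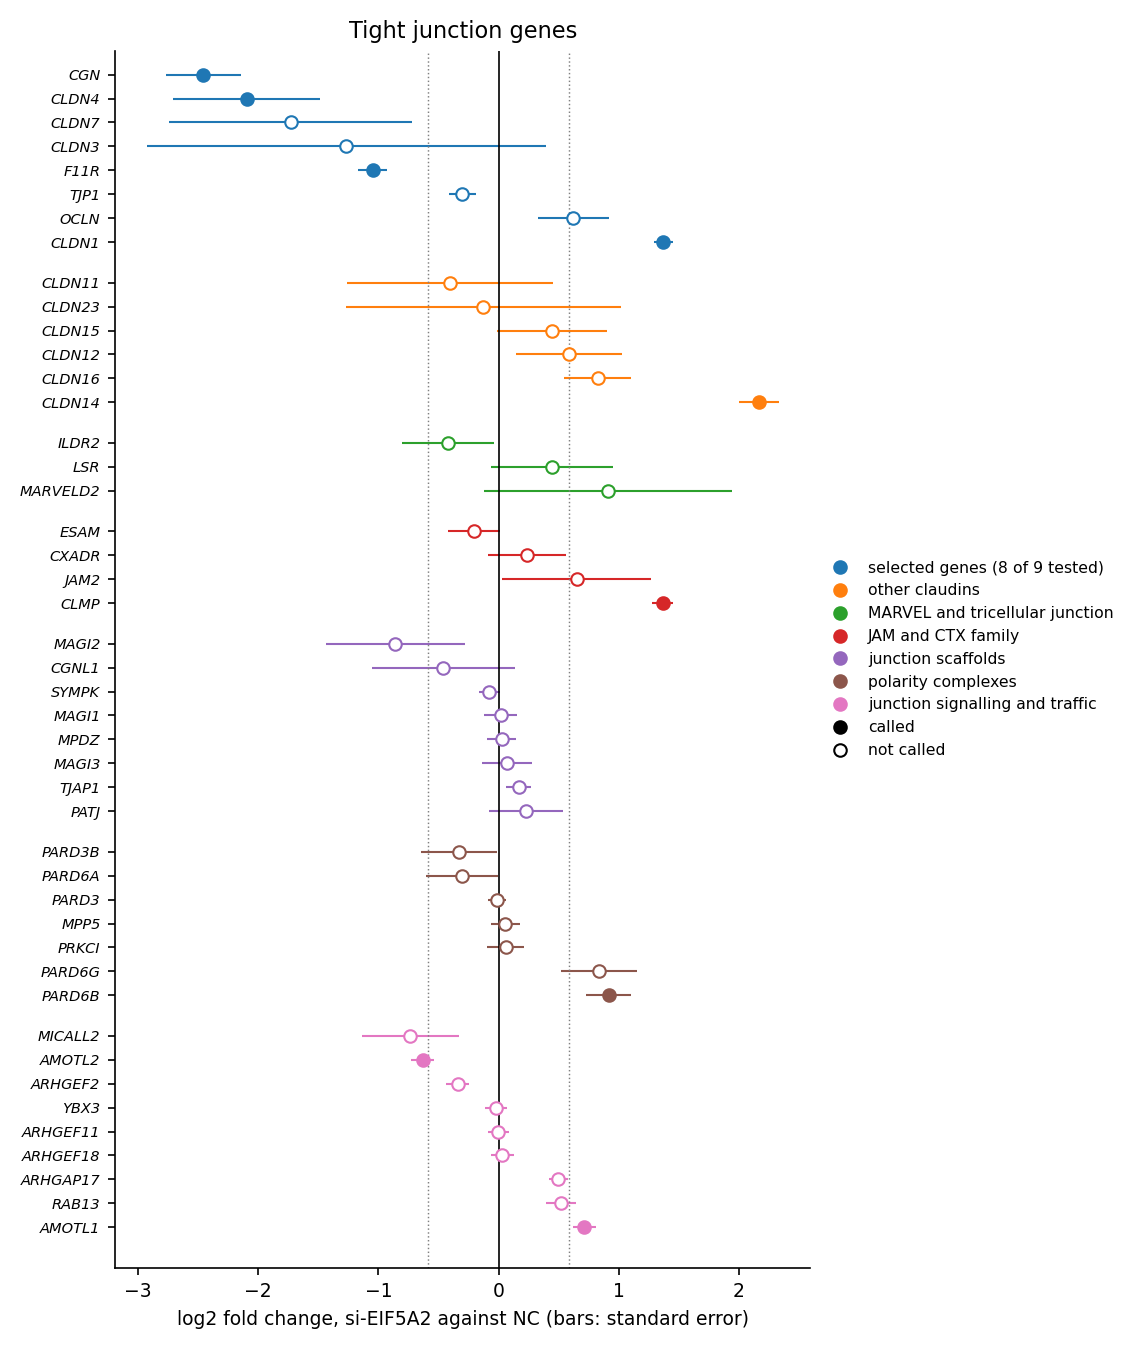
Log2 fold change of si-EIF5A2 against NC (horizontal axis, with its standard error as a bar) for the selected genes and other tight junction genes tested, grouped by role; filled circles were called, open circles were not, and dotted lines mark a fold change of 1.5. CGN, CLDN4 and F11R lie on the lower side, CLDN1, CLDN14, CLMP, PARD6B and AMOTL1 on the higher side, and most of the scaffold genes shown lie close to 0.

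Desmosomes are the neighbouring junctions that anchor keratin filaments. Of 9 desmosome genes tested 5 were called (55.6%, beside 24.6% of all genes tested), 3 higher and 2 lower. DSP, the plaque protein desmoplakin, rose from 24.4 ± 2.17 to 41.6 ± 6.22 CPM (SD, n = 3 each), and the cadherins DSC2 and DSC3 rose by 0.84 and 1.36 on the log2 scale. PKP3, a plakophilin of the plaque, fell from 14.7 ± 2.80 to 5.46 ± 1.65 CPM. PPL, encoding periplakin, had 251, 240 and 183 counts in NC and 2, 0 and 8 counts in si-EIF5A2 libraries.

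Of 10 transcription factors known to act on junction genes, 7 were tested and 3 were called (42.9%, beside 24.6% of all genes tested). KLF4 fell from 71.3 to 81.9 CPM in NC down to 19.2 to 22.2 CPM after knockdown, TWIST1 fell from 5.39 ± 0.481 to 3.48 ± 0.647 CPM (SD, n = 3 each), and ZEB2 rose from 19.8 ± 1.46 to 30.0 ± 6.77 CPM (adjusted p = 0.0227). ZEB1 had a log2 fold change of 0.24 and SNAI2 of 0.41, and neither was called. GRHL2 and OVOL2, factors known to favour the epithelial state, were too low to be tested. These values stand beside those of the junction genes, and any relation between them was not tested.

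Genes that followed CLDN1 and F11R most closely were looked for among the 8843 genes averaging 10 CPM or more, by the Pearson correlation of log2 CPM over the 6 libraries. The 6 points fall into 2 groups, so any gene that changed strongly correlates, and 554 genes reached a coefficient over 0.98 with CLDN1. The closest were USO1, DCBLD2, RAB22A, TMEM200A and PLOD2, with coefficients from 0.9992 to 0.9997. DCBLD2 rose from 110.9 to 296 CPM and PLOD2 from 272 to 712 CPM on average. For F11R, 303 genes exceeded 0.98, and the closest were SOGA1, GPAT3, SLC7A1, SPECC1 and QARS, with coefficients from 0.9975 to 0.9983.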

How the data were processed

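RNA of 6 SKOV3 libraries was sequenced (2 groups, n = 3 each). The sample titles gave both the group and the replicate number. The authors' methods name StringTie and ballgown. The deposited values are estimated counts, whole numbers for each gene, not normalized. The methods name no aligner, build or annotation release. The submitters' processing notes list Bowtie 0.12.2 and the mouse builds mm8 and mm9, which cannot apply to human identifiers. Low values pile up at multiples of 3.81 counts (found over values from 2 to 60), taken as 1 fragment.

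Symbols, positions, exon lengths and overlaps came from GENCODE release 29 (58552 identifiers matched). Counts were already whole, so rounding changed nothing. Differential expression used edgeR 4.0.16 (R 4.3.3): filterByExpr, TMM, condition as the only term, robust quasi-likelihood fits and adjustment over all genes passing the filter. Standard errors are the log2 fold change over the root of F. DESeq2 1.42.0, other scalings and filters, the replicate number as a block, both other thresholds and each library left out were the alternatives.

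The 9 genes and the lists were chosen with earlier results of these data known. Named are all 9, EIF5A2, called list genes averaging 1 CPM or more, the most abundant uncalled ones, and the 5 genes most like the leading gene of each direction. GRB7, CLDN5, JAM2, JAM3, CGNL1, CLDN16, ELP5, GRHL2, OVOL2, ZEB1 and SNAI2 fall outside it and were picked with their values in view, as were the promoter motifs. Some genes of the lists, counted in the totals, are not reported here by name or value.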

Additional observations from a re-analysis of the deposited data

How the results depend on the processing

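The directions of all 8 genes tested held under every alternative in which they were fitted. The threshold of the methods gave 2370 called genes in place of 3992, and 3 other tight junction genes in place of 6. With the replicate number as a block, CLDN4 lost its call (log2 fold change -2.25, adjusted p = 0.0506) and OCLN gained one (0.66, adjusted p = 0.0394), so 4 of the 9 genes were still called but not the same 4; no other call among the 9 changed. Taken over all genes tested, same-numbered libraries did not deviate together (correlations of -0.024, 0.0052 and -0.0027). Such a correlation cannot show whether the numbers pair the libraries for some genes, which was not tested. With 1 library left out, CLDN4 ran from -2.61 to -1.68 and lost its call in 3 of 6 cases. CLDN3, CLDN4 and CLDN7 could not be fitted with at least 10 counts in every library, where 3 genes were called of 5, and CLDN3 and CLDN7 fell under the filter once counts were divided by 3.81 to give fragments. CLDN1, F11R and CGN kept their calls in all 17 alternatives. Depth limits CLDN3, CLDN4, CLDN7 and TJP3, which had at most 86 counts in any library.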
